A study of Mus musculus with 3 samples.

Results

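The cells described here were the 231 mouse embryonic stem cells, of 1167 analysed, with the lowest summed transcript levels of 2 sets of cell cycle genes. Cells were ranked within each replicate and condition by the summed CPM (counts per 1000000 UMIs) of 8 genes that peak in G2 and mitosis (Ccnb1, Plk1, Cdc20, Aurka, Cenpe, Cenpf, Ube2c and Tpx2) and, separately, by that of 8 genes that peak at the G1/S transition (Ccne1, Ccne2, Mcm3, Mcm5, Mcm6, Pcna, Cdc6 and Slbp). The 20% of cells with the lowest sum of both ranks are called low-cycle cells below, and the remaining 936 are called the other cells. The members were thus chosen by the CPM of these 16 genes, so the levels of these 16 genes are given as a description and carry no test.

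Single cells were sorted into 96-well plates and sequenced from the 3′ ends of their transcripts with unique molecular identifiers (UMIs), which count captured molecules. All cells came from a C57BL/6N stem cell line, JM8.N4, in which RAD21, a core subunit of the cohesin ring, carries the auxin-inducible AID degron, and all were grown without feeders in serum, LIF and 2i. Control cells received no auxin, and auxin cells received 500 µM indole-3-acetic acid for 6 h, which marks the tagged RAD21 protein for degradation. The procedure was carried out 3 times, and each plate held 1 condition, which gave 6 sets of cells. The low-cycle cells numbered 33 of 168 control and 33 of 169 auxin cells in replicate 1. Replicate 2 gave 74 of 371 and 58 of 290, and replicate 3 gave 17 of 85 and 16 of 84. They made up 14.9% to 27.7% of the cells of each of the 14 plates.

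Mouse embryonic stem cells divide rapidly, with a short G1 phase and a long S phase. E2F factors drive the genes of DNA replication around the G1/S transition, whereas the DREAM complex, through the CHR promoter element, and NF-Y, through CCAAT boxes, are known to time the genes of mitosis to G2. Mitotic transcripts and several of their proteins are removed after division, so a cell in early G1 carries few transcripts of either kind. Cyclin D1 (Ccnd1) drives G1 progression, and p21 (Cdkn1a) and p27 (Cdkn1b) inhibit cyclin-dependent kinases. Stem cells that differentiate lengthen G1, and lineage genes were therefore read in the same cells.

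Levels of single cells below are plain CPM, and those of the 16 rule genes in summed cells too. The levels of all other genes and lists are those of the summed cells of a set, in CPM with library sizes scaled by edgeR's TMM factors (0.820 to 1.14).

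Detection of some genes differed between replicates. Sox2, a core pluripotency factor, had 0 UMIs in all summed cells of replicates 2 and 3, and Pou5f1 was at 5.38 to 20.2 CPM there against 268 to 342 CPM in replicate 1. Of 7020 genes at 10 CPM or more in every sum of replicate 1, 151 had 0 UMIs in every sum of replicates 2 and 3, and 26 genes showed the reverse. Low-cycle cells and other cells were therefore compared within each set. The 288 well barcodes were each used on 2 to 12 plates, as is usual for plate libraries, and do not mark shared cells.

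The low-cycle cells had lower levels of both gene sets by construction, but how low differed between replicates. The median low-cycle cell held 406 CPM of the 8 G2/M genes in replicate 1 control cells, against 1647 in the other cells, and 445 against 2354 in replicate 1 auxin cells. Replicate 2 medians were 2334 against 4253 for control and 1485 against 4081 for auxin cells. Replicate 3 medians were 1433 against 2711 and 2284 against 3651. The median low-cycle cell of the replicate 2 control thus held a higher G2/M level in CPM than the median other cell of the replicate 1 control. For the 8 G1/S genes the medians of low-cycle cells were 632 to 1248 CPM and those of other cells 1424 to 1610 CPM. The cells are accordingly the lowest of their own set, not cells without cycle transcripts.

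**Figure D1:**
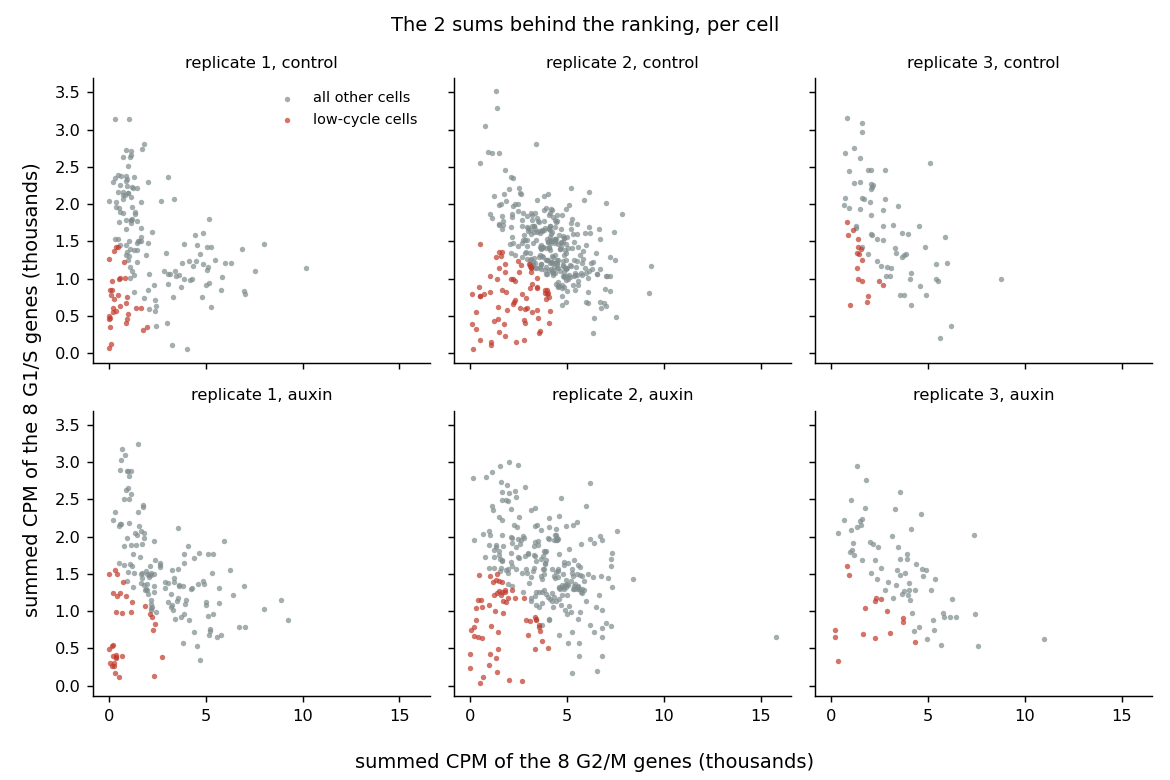
Summed CPM of the 8 G2/M genes (x axis, in units of 1000 CPM) against that of the 8 G1/S genes (y axis) for each cell, with 1 panel for each replicate and condition and the low-cycle cells in red. The red cells fill the lower left corner of each panel, and the 139 cells closest to the cut, 11.9% of all cells, lie along its edge.

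The cut passed through a continuous cloud. In the replicate 1 control the last cell inside had 498 CPM of G2/M and 1426 CPM of G1/S transcripts, and the first cell outside had 1092 and 1009. In the replicate 2 control the pair was 3071 and 1192 inside, and 3196 and 1156 outside. In all, 139 cells, 11.9%, lay within 5% of the rank range of the cut. The low-cycle to other ratio of summed levels ranged over the 6 sets from 0.119 to 0.622 for Ccnb1, which activates CDK1 at mitotic entry, and from 0.603 to 1.02 for Slbp, which binds histone mRNA. When cells were ranked on a random 50% of their UMIs and read in the 50% not used, the ratio of the G2/M sum was 0.233 to 0.612 and that of the G1/S sum 0.529 to 0.727, and 208 of the 231 cells were chosen again.

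The low-cycle cells had fewer UMIs. The median total was 71600 against 111044 in replicate 1 control cells, 83969 against 119348 in replicate 1 auxin cells, 53463 against 154482 in replicate 2 control cells and 101092 against 198408 in replicate 2 auxin cells. In replicate 3 the medians lay close together, at 62889 against 73294.5 for control and 74467.5 against 75376.5 for auxin cells. The ratio ran from 0.346 to 0.988 and was below 1 in 6 of 6 sets, with individual low-cycle cells at 9618 to 361331 UMIs. Fewer molecules in a cell and poorer capture of them differ in the ERCC spike-in, a fixed amount of synthetic RNA added to each well. The median ERCC count of low-cycle cells was 139 ± 212 UMIs above that of other cells (SD of the difference, n = 6 sets, exact sign-flip test, two-sided, p = 0.156, adjusted p = 0.313 over 6 measures). The 6 measures were the ERCC count, the mitochondrial and ribosomal protein shares of UMIs, and the shares of cells called G1, S and G2/M. The choice of cells fixed the direction of the G1 and G2/M shares, and counting them among the 6 lowers the adjusted p of the others. Endogenous UMIs per ERCC UMI had medians of 13.0 against 22.2 (control) and 17.7 against 25.4 (auxin) in replicate 1 cells. Replicate 2 cells had 20.6 against 35.8 and 21.0 against 39.1. Replicate 3 cells had 41.6 against 42.1 and 48.2 against 44.4, so the gap was present in the first 2 replicates and small or opposite in the third.

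Cells with few UMIs and an ordinary spike-in count were more common among the low-cycle cells. Of 231 low-cycle cells, 83 (35.9%) had under 50% of their set's median UMI total, against 97 of 936 other cells (10.4%). Among these shallow cells the ERCC count was also under 50% of its median in 25 low-cycle and 69 other cells, and was not low in 58 low-cycle and 28 other cells. Of these 58, 29 were replicate 2 control and 19 were replicate 2 auxin cells. The mitochondrial share of UMIs, which rises in damaged cells, had medians of 6.11% against 4.53% and 5.19% against 4.36% in replicate 1. In the replicate 2 control the median was 2.55% against 2.24%, with a mean of 5.36% against 2.37% and a highest cell of 23.0%. In the other 3 sets the medians were 1.73% to 1.87% against 1.82% to 2.12%, each lower in low-cycle cells, and the mean difference over the sets was 0.378 ± 0.706 percentage points (SD, n = 6, exact sign-flip test, p = 0.344, adjusted p = 0.516). The ribosomal protein share of UMIs had a median of 5.15% against 6.53% in the replicate 2 control. Over the sets it was lower in 3 and higher in 3 (exact sign-flip test, p = 0.469, adjusted p = 0.5625). Smaller cells, damaged cells and cells at another point of the cycle cannot be told apart by UMI totals, and damage was not tested.

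**Figure D2:**
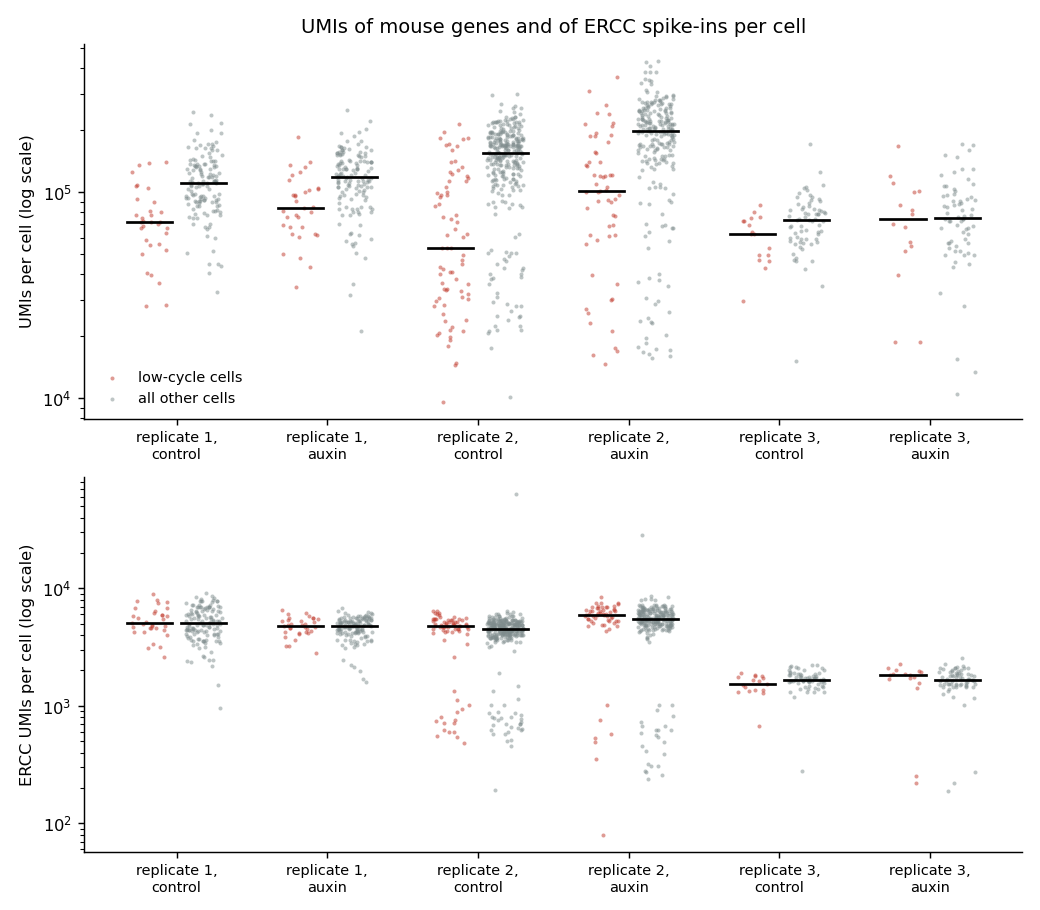
UMIs per cell and ERCC spike-in UMIs per cell, both on log axes, for low-cycle and other cells of each replicate and condition, with black lines at the medians. The UMI medians of low-cycle cells lie below those of other cells in 6 of 6 sets, with the widest gap in replicate 2 control cells (53463 against 154482), while the ERCC medians lie close together.

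Phase calls from the cyclone classifier, which compares pairs of marker genes within a cell and was run without the 16 rule genes, called G1 for 110 low-cycle cells (47.6%), S for 86 (37.2%) and G2/M for 35 (15.2%). The other cells were called G1 in 80 cases (8.55%), S in 352 (37.6%) and G2/M in 504 (53.8%). The classifier reads genes that follow the same phases as the rule genes, so its calls describe the choice and do not stand apart from it. The G1 share was higher among low-cycle cells in 6 of 6 sets, by 37.7 ± 23.6 percentage points (SD, n = 6), and the G2/M share lower in 6 of 6 sets, by −38.3 ± 8.10 points, and no test is given since the choice of cells fixed these directions. The difference in S share was 0.556 ± 22.9 points and changed sign between sets.

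The make-up of the low-cycle cells by called phase was not the same in every replicate. G1 calls reached 87.9% of control and 66.7% of auxin low-cycle cells of replicate 1. Replicate 2 had 23.0% and 62.1%, and replicate 3 had 17.6% and 18.8%. S calls were the most frequent in replicate 2 control (55.4%), replicate 3 control (70.6%) and replicate 3 auxin cells (43.8%). In these 3 sets most low-cycle cells were therefore not called G1.

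The next comparison covers the genes that were not part of the rule. Across the 13290 genes tested with edgeR on summed counts of the 6 sets, 24 were lower (0.181% of genes) and 2 were higher (0.015%) at an adjusted p of 0.05, together 0.196%. At an unadjusted p under 0.05 edgeR had 8.15% of genes lower and 3.88% higher. DESeq2 called 1.29% lower and 0.933% higher, and edgeR on cells thinned to 20000 UMIs called 0.899% lower and 0.349% higher. With cells ranked on 50% of their UMIs and tested in the 50% not used (split UMIs), edgeR called 83 lower and 23 higher of 11240 genes. Below, edgeR without further words means the fit on full counts. Of the 24 lower genes, 9 came from a list of 61 tested mitosis genes: Ccnf, Cdca3, Cdca8, Cks1b, Sgo2a, Cenpa, Arl6ip1, Pimreg and Mad2l1. The list had a median log2 difference of −0.75, against −0.04 for all genes tested, and 42 of the 61 genes were lower in 6 of 6 sets, against 5.41% of all genes. The list follows the same phases as the rule genes, so its direction is set by the choice of cells, and the sizes below are descriptions of how far the choice reached. The highest members of the list were Psrc1 at 0.02 and Pttg1, the securin gene, at −0.16.

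Pimreg, a regulator of mitotic progression on chr11:72042032-72047370 (mm10, plus strand), differed most of the 24. Its summed level in low-cycle cells was 7.4, 125 and 42.5 CPM in the control sets of replicates 1, 2 and 3 and 10.7, 92.3 and 54.3 CPM in the auxin sets. In other cells it was 51.9, 247 and 85.7 CPM, then 68.2, 235 and 121 CPM. The low-cycle value was below its own set's other cells every time, although the replicate 2 low-cycle values exceeded the replicate 1 values of other cells (log2 difference −1.55, SE 0.23, edgeR adjusted p = 0.0223).

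Ccnf, whose product cyclin F is the substrate receptor of an SCF ubiquitin ligase in G2, lies on chr17:24222198-24251484 (minus strand). It was at 69.9, 163 and 141 CPM in low-cycle control cells and 132, 132 and 206 CPM in low-cycle auxin cells of replicates 1 to 3. Other cells had 326, 252 and 263 CPM, and 346, 226 and 319 CPM (log2 difference −1.07, SE 0.18, edgeR adjusted p = 0.0322). The 2 groups of 6 values did not overlap.

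Cenpa, the histone H3 variant that marks centromeres, on chr5:30666777-30674830 (plus strand), was at 291, 435 and 274 CPM and 292, 435 and 394 CPM in low-cycle cells, and at 652, 730.4 and 506 CPM and 809, 809.8 and 598 CPM in other cells. These groups did not overlap either, and Cenpa had the smallest adjusted p of the table together with Arl6ip1 (log2 differences −0.96, SE 0.11, and −0.87, SE 0.10, edgeR adjusted p = 0.00445 for each). Arl6ip1, a membrane-shaping protein of the endoplasmic reticulum, on chr7:118118891-118129662 (minus strand), was at 456 to 1379 CPM in low-cycle and 1200.3 to 2070.1 CPM in other cells, with overlapping ranges across sets.

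Other genes of the spindle checkpoint, the centromere and mitotic entry were also lower. Mad2l1, which holds the anaphase-promoting complex in check, was at 82.4 to 155 CPM against 138 to 287 CPM (log2 difference −0.80, SE 0.12, edgeR adjusted p = 0.0223), and Sgo2a, which protects centromeric cohesin, at 32.4 to 97.6 CPM against 110.0 to 159.7 CPM (−1.09, SE 0.19, adjusted p = 0.0381). Cdca8, a subunit of the chromosomal passenger complex, differed by −0.72 and Cdca3, which promotes mitotic entry, by −0.88. Cks1b, a small binding partner of cyclin-dependent kinases, differed by −0.54. Some core cell cycle genes with differences of about this size did not pass with edgeR. Ccna2, the cyclin of S phase and G2, was at −0.95 (SE 0.18, edgeR adjusted p = 0.0518), but passed with DESeq2 (adjusted p = 0.000462) and with edgeR on thinned cells (0.000342). Cdk1, the mitotic kinase, was at −1.10 (SE 0.24, edgeR adjusted p = 0.08, DESeq2 0.0614) and passed on thinned cells (edgeR, 0.0033). Mki67, the proliferation marker, was at −0.91 (SE 0.31, edgeR adjusted p = 0.26, DESeq2 0.304).

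The list of 64 tested replication genes had a median of −0.41. Of these, 3 passed, all lower, against 0.181% of all genes, and 23 were lower in 6 of 6 sets, against 5.41%. The list follows the phases of the rule genes too, so its direction is likewise set by the choice of cells. Mcm2, a subunit of the replicative helicase whose partners Mcm3, Mcm5 and Mcm6 are in the rule, lies on chr6:88883474-88898780 (minus strand). It was at 272, 345 and 331 CPM in low-cycle control cells and 319, 347 and 241 CPM in low-cycle auxin cells, and at 475, 524 and 394 CPM and 497, 500.1 and 397 CPM in other cells, with no overlap (log2 difference −0.59, SE 0.09, edgeR adjusted p = 0.0223). Pold1, the catalytic subunit of DNA polymerase delta, was at 44.5 to 106 CPM against 87.3 to 155 CPM (−0.84, SE 0.13, adjusted p = 0.0223), and Rpa2, which coats single-stranded DNA, at 90.2 to 136 CPM against 168 to 232 CPM (−0.84, SE 0.12, adjusted p = 0.0223). E2f1, the transcription factor, was at 0.00, Mcm4 at −0.33 and Rrm2, a subunit of ribonucleotide reductase, at −0.88, and these did not pass. The summed level of the replication list in low-cycle relative to other cells was 0.56 (control) and 0.68 (auxin) in replicate 1 cells. The ratios were 0.79 and 0.77 for replicate 2, and for replicate 3, 0.97 and 0.91.

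Promoters were searched for the elements known for these phases. A window from 250 bases before to 50 bases after each start (RefSeq, GRCm38.p6) was read on both strands for the CHR core TTTGAA, for CCAAT, and for the E2F motifs TTGGCGC or TTCCCGC. Of 56 promoters of 50 matched mitosis genes, 64.3% held TTTGAA and 57.1% held both TTTGAA and CCAAT, against 17.9% and 6.95% of all 32851 promoters. Of 62 promoters of 50 matched replication genes, 50.0% held an E2F motif, against 6.81% of all promoters, and 17.7% held TTTGAA. Among the 25 promoters of 22 of the 24 lower genes, 36.0% held TTTGAA, 76.0% CCAAT and 36.0% an E2F motif, so most lacked each of TTTGAA and E2F. TTGGCGC after an A overlaps ATTGG, which is CCAAT read on the opposite strand, and a match describes the letters only. Printed here are the 130 bases before the start of 5 lower genes, 3 with TTTGAA and CCAAT (Ccnf, Cks1b and Lbr) and 2 with an E2F motif (Rpa2 and Cenpm), written 5′ to 3′ on the gene's strand with matches on either strand in capitals. They lie at chr17:24251410-24251539 (minus), chr3:89418292-89418421 (minus), chr1:181842402-181842531 (minus), chr4:132768230-132768359 (plus) and chr15:82244337-82244466 (minus), in that order.
Ccnf: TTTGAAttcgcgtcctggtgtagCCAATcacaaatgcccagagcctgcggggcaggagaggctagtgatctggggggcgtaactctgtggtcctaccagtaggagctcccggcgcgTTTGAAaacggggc
Cks1b: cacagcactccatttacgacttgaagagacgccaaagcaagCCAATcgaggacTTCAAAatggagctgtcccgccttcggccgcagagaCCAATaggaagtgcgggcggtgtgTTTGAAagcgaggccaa
Lbr: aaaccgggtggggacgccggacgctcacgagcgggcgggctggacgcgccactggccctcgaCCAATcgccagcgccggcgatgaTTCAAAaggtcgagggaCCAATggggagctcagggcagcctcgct
Rpa2: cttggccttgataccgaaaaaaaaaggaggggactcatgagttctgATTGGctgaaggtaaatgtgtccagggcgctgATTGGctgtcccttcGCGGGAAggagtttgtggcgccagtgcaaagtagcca
Cenpm: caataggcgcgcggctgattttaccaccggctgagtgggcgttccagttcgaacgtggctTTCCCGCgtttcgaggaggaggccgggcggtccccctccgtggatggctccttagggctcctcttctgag

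The remaining 12 lower genes came from neither list. Cenpm, a kinetochore protein, differed by −0.58 and Lbr, the lamin B receptor of the inner nuclear membrane, by −0.68. Tubb4b, a beta-tubulin, differed by −0.73 (SE 0.11, edgeR adjusted p = 0.0223). Ezh2, the methyltransferase of Polycomb repressive complex 2, was at 455, 315 and 296 CPM in low-cycle control cells and 343, 255 and 185 CPM in low-cycle auxin cells, against 638, 372 and 386 CPM and 619, 441 and 352 CPM in other cells (log2 difference −0.61, SE 0.10, edgeR adjusted p = 0.0369). Replicate 1 was higher than the other replicates in both classes, so the ranges overlapped across sets but not within them. Among glycolytic enzymes Ldha, lactate dehydrogenase A, differed by −0.47 and Tpi1, triosephosphate isomerase, by −0.43 (edgeR adjusted p = 0.0395 for each). Mat2a, which makes the methyl donor S-adenosylmethionine, differed by −0.45. The other five were Tmem40, Marcksl1, Ppil1, Ddx39 and Serbp1, at −0.36 to −0.87.

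The 2 higher genes were Slc51a and Ptgr1. Ptgr1, an NADPH-dependent reductase of prostaglandins and leukotriene B4, on chr4:58965439-58987119 (minus strand), was at 243, 65.4 and 170.0 CPM in low-cycle control cells and 147, 174 and 159 CPM in low-cycle auxin cells. Other cells had 90.4, 63.6 and 84.2 CPM, and 86.9, 97.2 and 67.3 CPM, so that 5 of 6 sets were well apart and the replicate 2 control set differed little (log2 difference 0.88, SE 0.16, edgeR adjusted p = 0.0455), and the call was lost without 1 cell described below. Slc51a, a subunit of an organic solute transporter, on chr16:32474504-32487879 (minus strand), had UMIs in 22 low-cycle and 50 other cells, at 0.502 to 57.4 CPM against 0.131 to 13.4 CPM (2.32, SE 0.41, adjusted p = 0.0399). With the lowest 10% of cells in place of 20% its difference was −0.44, so its direction rested on the cut.

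The calls depended on the sums available. Leaving out replicate 1 or replicate 2 left 0 calls by edgeR, with 1220 and 883 genes at an unadjusted p under 0.05, while leaving out replicate 3 gave 14 higher and 143 lower genes, of which 23 were among the 26. With both conditions summed to 1 value per replicate and class edgeR made 0 calls, the smallest adjusted p being 0.0791 (1242 genes at an unadjusted p under 0.05). Against other cells matched on UMI total edgeR made 0 calls (814 genes at an unadjusted p under 0.05), although the median of the mitosis list was −0.72.

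**Figure D3:**
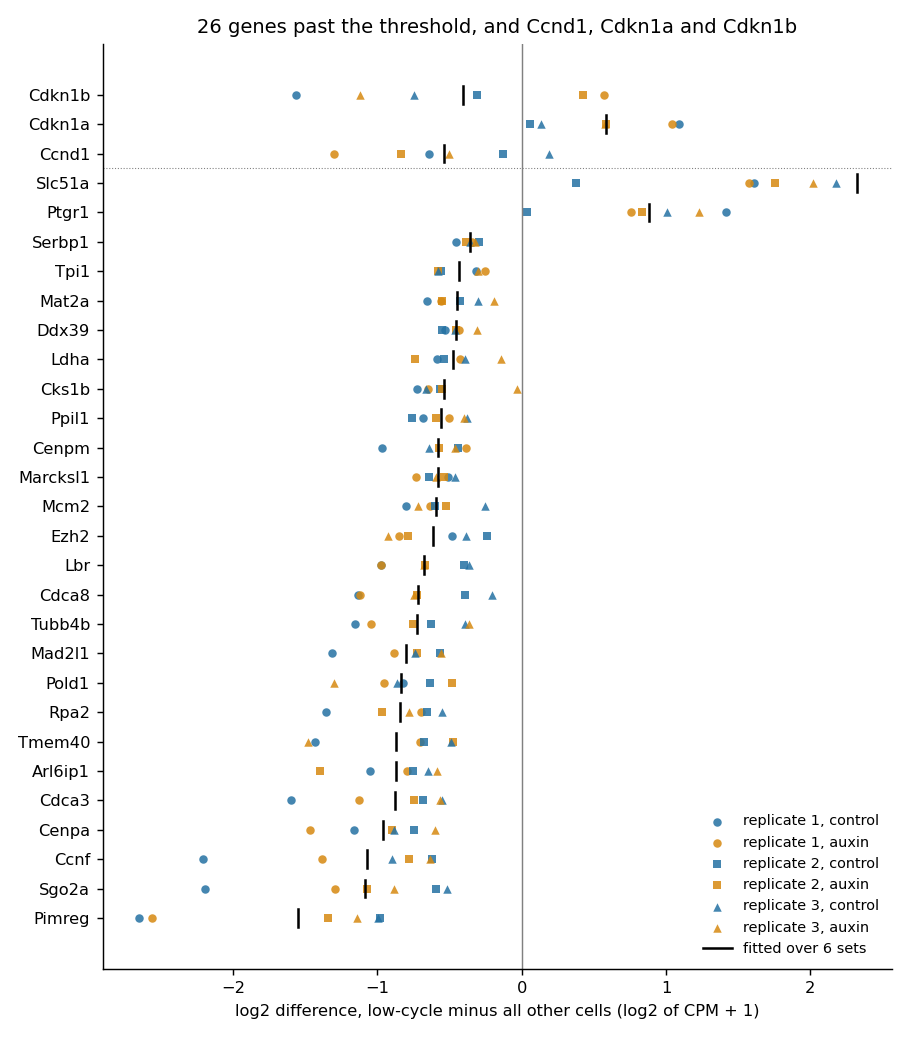
Log2 difference of TMM-normalized CPM plus 1 between low-cycle and other cells in each of the 6 sets (points) for the 26 genes called and for Ccnd1, Cdkn1a and Cdkn1b, with a black bar at the difference fitted by edgeR. The points of the 24 lower genes lie below 0 in 6 of 6 sets, and those of Cdkn1b lie on both sides of 0.

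The 3 G1 regulators did not move together, and none passed with edgeR on full counts. Cdkn1a, p21, on chr17:29090976-29100727 (plus strand), was at 769, 182 and 267 CPM in low-cycle control cells and 571, 432 and 226 CPM in low-cycle auxin cells, against 361, 175 and 243 CPM and 276, 288 and 151 CPM in other cells. It was higher in 6 of 6 sets, with the widest gaps in replicate 1 and little difference in the replicate 2 and 3 controls (log2 difference 0.59, SE 0.14, edgeR adjusted p = 0.0869, DESeq2 adjusted p = 0.00285, and edgeR on split UMIs 0.0379). Ccnd1, cyclin D1, on chr7:144929931-144939925 (minus strand), was at 39.3, 129.7 and 62 CPM and 15.4, 90.4 and 44.2 CPM, against 62, 142 and 54.2 CPM and 39.2, 162 and 63 CPM in other cells. It was lower in 5 of 6 sets (−0.54, SE 0.18, edgeR adjusted p = 0.245). Cdkn1b, p27, on chr6:134920401-134925513 (plus strand), was low in all sums, at 6.48 to 36.5 CPM against 11.9 to 24.2 CPM, and lower in 4 sets and higher in 2 (−0.41, SE 0.32, adjusted p = 0.678). Of the markers given for these cells only Cdkn1a was thus higher in each set, and it passed with DESeq2 and split UMIs but not with edgeR on full counts.

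Genes known from G1 arrest and cell cycle exit showed no common direction. Of 31 tested, none passed with edgeR on full counts (DESeq2 called 2 higher and 2 lower, against 0.933% and 1.29% of all genes, and edgeR on thinned cells 1 each way, against 0.349% and 0.899%), 4 were higher and 5 lower at an unadjusted p under 0.05, against 3.88% and 8.15% of all genes, and the median was −0.04. Cdkn1c, p57, was at 0.98 (edgeR adjusted p = 0.565), Ccnd2 at 0.25 and Ccnd3 at −0.23, both D-type cyclins. Among 24 tested p53 target genes the median was 0.12 and none passed with edgeR on full counts, while DESeq2 and edgeR on split UMIs each called 3 higher, against 0.933% of all genes and 23 of 11240 genes. In that list Perp, Mdm2, Polk, Plk2 and Cdkn1a were higher and Tigar and Gtse1 lower at an unadjusted p under 0.05, 5 and 2 of 24 against 3.88% and 8.15% of all genes. Mdm2, the ubiquitin ligase that limits p53, was at 0.51 (edgeR adjusted p = 0.143, and on split UMIs 0.0429). Ribosomal protein genes had a median of −0.09 over 83 genes. Of these, 12 were lower and 0 higher at an unadjusted p under 0.05, against 8.15% and 3.88% of all genes. In 6 of 6 sets 17 were lower, against 5.41% of all genes. Histone genes had a median of 0.01 over 19.

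Across all cells, ordered by rank sum into 5 equal bins, the list levels were read beyond the cut. The bins come from the rule genes, so the order of the mitosis and replication lists follows from the ranking. Bin levels were plain CPM, divided by the mean of the 5 bins of the set. The summed mitosis list went from a median of 0.741 in the lowest 20% of cells (range over sets 0.525 to 0.836) to 1.18 in the highest. The replication list went from 0.865 (0.653 to 0.993) to 1.04 in bin 3 and stood at 1.05 in bins 4 and 5. The sum of Ccnd1, Cdkn1a and Cdkn1b, most of which was Cdkn1a, was at 1.16 (1.04 to 1.65) in the lowest bin and 0.862 in the highest. The naive pluripotency list stood at 0.995 (0.761 to 1.09) in the lowest 20%.

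**Figure D4:**
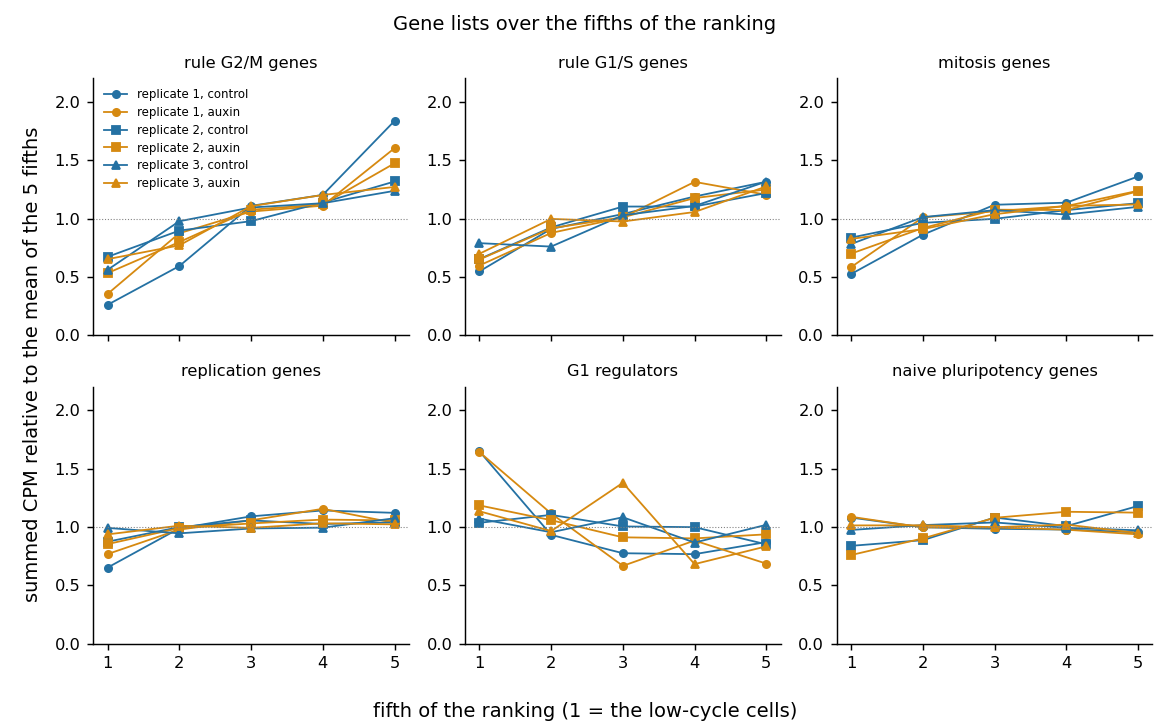
Summed level of 6 gene lists, in plain CPM, in each of 5 equal bins of cells by rank sum, divided by the mean of the 5 bins, with 1 line for each replicate and condition. Bin 1 holds the low-cycle cells. The mitosis list has a median of 0.741 in bin 1 and 1.18 in bin 5, and the G1 regulators have 1.16 and 0.862.

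Of 27 tested naive pluripotency genes none passed with edgeR on full counts, 1 was lower with DESeq2 (against 1.29% of all genes) and 2 were lower with split UMIs (against 83 of 11240 genes), and their median was −0.09. The summed naive list in low-cycle relative to other cells was 0.75 (control) and 0.67 (auxin) in replicate 2, and 0.95 to 1.04 in the other 4 sets. Nanog, a transcription factor of the naive state, on chr6:122707489-122714633 (plus strand), was at 498, 27.4 and 359 CPM in low-cycle control and 565, 22.5 and 368 CPM in low-cycle auxin cells. Other cells had 633, 61.1 and 519 CPM, and 694, 39.1 and 501 CPM, so Nanog was lower in 6 of 6 sets without passing with edgeR on full counts (log2 difference −0.58, SE 0.11, edgeR adjusted p = 0.0518, DESeq2 adjusted p = 0.00462, and edgeR on split UMIs 0.0473). Zfp42, a naive marker, was at 0.04, and Esrrb, a nuclear receptor of the naive network, at 0.10. Pou5f1 was at 0.17 (adjusted p = 0.744), with replicate 1 values of 313 and 297 CPM in low-cycle cells against 342 and 268 CPM. At a common depth of 20000 UMIs per cell, which 219 low-cycle and 921 other cells reached, at least 3 naive genes were found in 219 of 219 low-cycle and 921 of 921 other cells.

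Cells without a UMI of Pou5f1, Sox2 or Nanog at that depth were 90 low-cycle (41.1%) and 267 other cells (29.0%). Of replicate 1 cells 0 of 66 low-cycle and 0 of 271 other cells lacked all 3 genes. In replicate 2 they were 89 of 122 (73.0%) and 267 of 518 (51.5%), and in replicate 3 they were 1 of 31 and 0 of 132. The share thus followed replicate 2, where the summed level of Nanog was 22.5 to 61.1 CPM, against 359 to 694 CPM in replicates 1 and 3. Sox2 had 0 UMIs and Pou5f1 was low in both replicates 2 and 3.

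Lineage genes were searched for differentiating cells, and no lineage list had a gene that passed with edgeR on full counts. DESeq2 called 2 of 9 trophectoderm genes and 1 of 10 endoderm genes higher, against 0.933% of all genes. With split UMIs edgeR called 1 of 6 trophectoderm genes higher, Krt8 (1.73, adjusted p = 0.0341), against 23 of 11240 genes. Over the genes tested the median log2 difference was −0.13 for 17 formative, −0.23 for 3 mesendoderm, 0.42 for 10 endoderm, −0.03 for 5 neural, 0.48 for 9 trophectoderm and 0.05 for 5 fibroblast genes. Otx2, an early marker of exit from the naive state, was at 0.16 and Dnmt3b, a de novo DNA methyltransferase, at −0.33. At 20000 UMIs per cell, 3 or more endoderm genes were found in 91 low-cycle (41.6%) and 327 other cells (35.5%), and 3 or more neural genes in 20 (9.13%) and 68 (7.38%). For mesendoderm genes the counts were 2 (0.913%) and 3 cells (0.326%), and for fibroblast genes 19 (8.68%) and 83 (9.01%). At full counts, with unequal depths, each share was lower in low-cycle cells. They were 70.6% against 80.3% for endoderm, 25.1% against 39.2% for neural, 3.9% against 4.38% for mesendoderm and 31.2% against 37.8% for fibroblast genes. At least 3 genes of the 2-cell-like state, which are transcribed in rare stem cells, were found in 0 of 219 low-cycle cells, which allows a share of up to 1.37% (3 counts of the total; the exact 95% limit is 1.67%), and in 3 of 921 other cells (0.326%). That limit covers detection of these genes at this depth, and at full counts the numbers were 1 of 231 (0.433%) and 5 of 936 (0.534%).

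Trophectoderm genes, those of the first extraembryonic lineage, stood out among low-cycle cells at this depth. Of 219 low-cycle cells 24 had 3 or more of these genes (11.0%, exact 95% interval 7.15% to 15.9%), against 34 of 921 other cells (3.69%, 2.57% to 5.12%). Replicate 1 shares were 18.2% against 7.41% for control and 15.2% against 3.68% for auxin cells. Those of replicate 2 were 5.88% against 2.71% and 9.26% against 1.35%. Those of replicate 3 were 17.6% against 8.96% and 7.14% against 3.08%, so the share was higher in 6 of 6 sets. The intervals cover counting error only, and the replicate 3 shares rest on 3 of 17 and 1 of 14 low-cycle cells. Without thinning the shares were 25.5% and 27.6%, at the unequal depths given above. The summed level of the list in low-cycle relative to other cells was 12.37 (control) and 2.15 (auxin) for replicate 1. It was 0.92 and 2.81 for replicate 2, and 1.22 and 0.61 for replicate 3, so in 2 of the 6 sets it was not higher and no order is read there.

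The high value of the replicate 1 control came largely from a single cell. This cell ranked 7 of 168 in its set, held 139547 UMIs from 6134 genes, was called G1 and had UMIs of 11 of the 14 trophectoderm genes. It alone gave 2194 of the 3170 Krt18 UMIs of all low-cycle cells (69.2%), with 365 in the next cell, and 50.0% of their Krt8 and 56.4% of their Gata2 UMIs. Krt8 and Krt18 are the paired keratins of simple epithelia, and Gata2 is a transcription factor of the trophoblast. The cell also had 68 UMIs of Krt7, 67 of Ascl2, 63 of Gata3, 62 of Eomes and 3 of Cdx2, while it had 0 of Pou5f1, Sox2 and Esrrb, 1 of Nanog and 77 of Zfp42. Its leading genes relative to its set included Alppl2, Krt18, Dppa1, Mbnl3, Gata2 and Id2.

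More than 1000 CPM of Krt8 and Krt18 together was found in 5 low-cycle cells, 2 in replicate 1 control, 1 in replicate 1 auxin and 2 in replicate 2 auxin cells, and in 1 other cell, of the replicate 3 auxin set. In the fit across genes Krt8 was at 1.54 (SE 0.39, edgeR adjusted p = 0.114), and at 1.10 without the single cell. Krt18 was at 1.78 (SE 0.75, adjusted p = 0.362), and at 1.20 without it. Gata2 was at 2.75 (SE 0.56, edgeR adjusted p = 0.0565, DESeq2 adjusted p = 1.7e-05). Its low-cycle level was 81.9 CPM in control and 8.44 CPM in auxin cells of replicate 1, against 1.77 and 1.71 CPM in other cells, and 2.15 to 11.5 CPM against 0.177 to 4.3 CPM in the other replicates. Gata2 thus lay near the floor in other cells and met the count filter mainly through the low-cycle sums. It was not tested with thinned or split UMIs or against matched cells, and its fit is not read as support for a lineage. Without that cell edgeR called 2 genes higher and 34 lower, 25 of them among the 26, and Ptgr1, of which the cell held 237 UMIs, no longer passed (0.75, adjusted p = 0.0505). Without the cell the median of the trophectoderm list was 0.18.

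**Figure D5:**
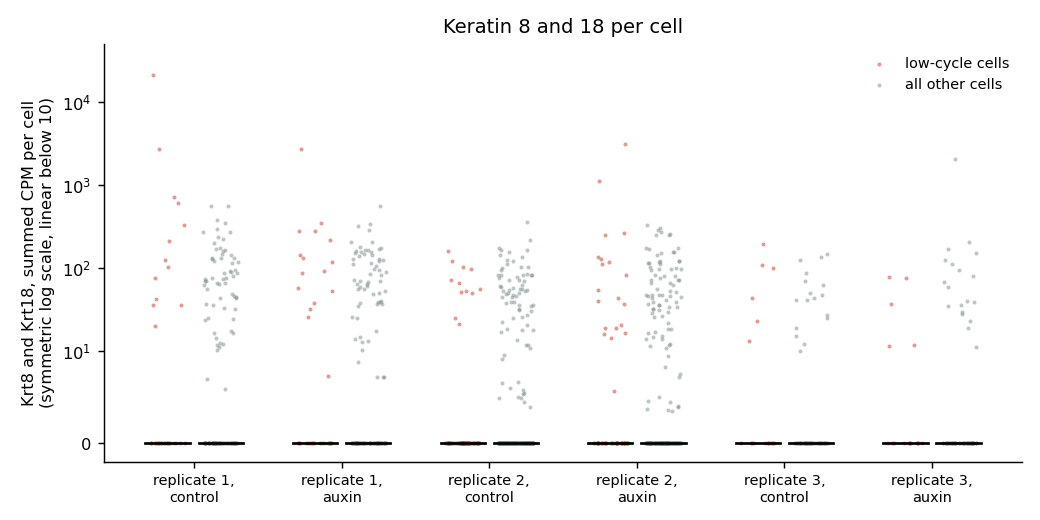
Summed CPM of Krt8 and Krt18 in each cell on a symmetric log axis, for low-cycle and other cells of each replicate and condition. Most cells lie near 0, and 5 low-cycle cells and 1 other cell lie above 1000 CPM, the highest at 20918 CPM.

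Auxin-treated and control low-cycle cells were compared with the replicate as a block, to see whether loss of cohesin changed transcripts in these cells. Each plate held 1 condition, and replicate 3 had 1 plate for each. The block does not remove differences between plates, which cannot be told apart from those between conditions. Of 12052 genes tested with edgeR 0 passed (percent called 0), 439 genes (3.64%) had an unadjusted p under 0.05, with 1.9% higher and 1.74% lower, and DESeq2 called 1 higher and 3 lower. Rad21 transcripts were at 36.6, 34 and 46 CPM in control and 33, 35.1 and 75.2 CPM in auxin low-cycle cells, which does not check the treatment since the degron acts on the protein. Between low-cycle and other cells Rad21 was at 0.48 (SE 0.18, edgeR adjusted p = 0.306), higher in 6 of 6 sets. Klf5, a Krüppel-like factor of the naive network, was at 352, 60.4 and 239 CPM in control and 188, 31.5 and 107 CPM in auxin low-cycle cells, lower in 3 of 3 replicates (log2 difference −1.01, SE 0.18, edgeR adjusted p = 0.997, DESeq2 adjusted p = 0.042). In other cells Klf5 was at 378, 62.4 and 294 CPM in control and 182, 20.5 and 125 CPM in auxin cells.

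Some other genes differed one way in 3 of 3 replicates without passing with edgeR. Klf4, a related factor, was at 157, 6.03 and 79.7 CPM in control and 97.5, 0.134 and 20.2 CPM in auxin low-cycle cells (−1.85, SE 0.54). Lefty2, an inhibitor of Nodal signalling, was at 315, 53.4 and 104 CPM in control and 90.6, 40 and 19.4 CPM in auxin low-cycle cells (−1.49, SE 0.35, DESeq2 adjusted p = 0.042). Dkk1, a secreted WNT inhibitor, was higher in 3 of 3 replicates, at 37.5, 1 and 6.2 CPM in control and 106, 2.68 and 24.8 CPM in auxin cells (1.60, SE 0.41). Of 27 naive genes tested, 7 were lower at an unadjusted p under 0.05, against 1.74% of all genes, and the median was −0.26. Mitochondrially encoded genes moved the same way, with 6 of 13 lower and 0 higher at that level and a median of −0.45. Whether the effect of auxin differed between low-cycle and other cells was tested as an interaction over 15832 genes, and 0 passed by edgeR or DESeq2, with 332 (2.1%) at an unadjusted p under 0.05 by edgeR, 1.14% higher and 0.96% lower. The interaction was 0.30 (SE 0.25) for Klf5, −0.71 (SE 0.54) for Klf4, −0.92 (SE 0.45) for Lefty2 and −0.80 (SE 0.96) for Dkk1 on the log2 scale. The low-cycle sums held 1041003 to 6643698 UMIs from 16 to 74 cells, which limits how small a difference could be seen. In simulated sums with known changes the auxin fit called 27.4% of 2-fold and 66.7% of 4-fold changes. The interaction fit called 10.6% and 38.4%, so large differences could be missed as well.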

How the data were processed

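UMI counts per gene and well, with ERCC and transgene rows, were deposited by the authors as raw counts. The submitters' processing notes name mm10, and the aligner, the counting tool, the annotation and the use of strand are not given in the sources used here. Of 1536 wells on 16 plates, 1335 had more than 2600 detected genes. A further 168 cells of 2 replicate 3 plates, whose condition is not settled by the sources, were left out, which left 1167 cells on 14 plates. Conditions were taken from the well annotation, where replicate 1 plates are named by the presence or absence of RAD21, and 1 well of a replicate 2 auxin plate carries the name of another auxin plate. The authors also deposited the number of detected genes and UMIs and the percent of ERCC UMIs per well. No doublet caller was run. CPM used the 52636 mouse genes without the 92 ERCC and 11 transgene rows, plain for single cells and for the rule genes, and with TMM-scaled library sizes (factors 0.820 to 1.14) for the levels of other genes and lists in summed cells.

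Cells are not replicates, and counts were summed over low-cycle and over other cells of each replicate and condition (low-cycle sums of 1041003 to 6643698 and other sums of 5023933 to 43804622 UMIs). Sums were tested with edgeR 4.0.16 in R 4.3.3 (quasi-likelihood, TMM, filterByExpr, Benjamini-Hochberg at 0.05) with the 6 sets as a block. The 16 rule genes were removed before the edgeR adjustment, except in the auxin comparison, which kept them. For DESeq2 they were removed only after adjustment. Between low-cycle and other cells DESeq2 gave no adjusted p for 13.6% of the genes, which count as not called. The auxin comparison had the replicate as a block, since same-numbered sums deviated together (correlations of 0.725, 0.662 and 0.417). SE was the log2 difference divided by the root of F. Set-level values were compared with exact two-sided sign-flip tests, and phases were called with cyclone in scran 1.30.0. P-values of low-cycle against other cells count the 6 sets as units, although control and auxin sets of a repeat share it, and only 3 repeats on 1 line were made. Lineage shares used cells thinned to 20000 UMIs. Intervals cover counting error only. The rule for named genes took the 10 genes with the largest difference each way among those past the threshold that moved the same way in every set (5 each way for auxin), up to 4 passing members of each list, and a set of named cycle, pluripotency, lineage and auxin-responsive genes. The remaining called genes, Gata2, Krt18, Lefty2, Malat1, Neat1, Cryab, S100a1 and the single cells' genes were named after their values were seen. The edgeR fits were tested on simulated sums with known fold changes, and the other steps were not.

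The members, lists and tests were chosen with earlier results of these data known. Alternatives were DESeq2 1.42.0, RLE scaling, no filter, other cuts, thinning, split UMIs, ranking within plates, over 4000 genes, all plates, no block, sums per replicate, single conditions and leaving out each replicate. Cells at or above 50% of the median UMI total, other cells matched on UMI total and leaving out the high-Krt18 cell were added after seeing the data. Gene positions came from GENCODE vM21 (mm10) and promoters from RefSeq (GRCm38.p6).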

Additional observations from a re-analysis of the deposited data

Results flagged for a closer look

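Of 60 results examined for a set far from the others, 3 were flagged, and chance flags about 1 in 20. The difference of Cks1b in replicate 3 auxin cells was −0.0354 on the log2 scale, at a gap of 0.747 of the range from the nearest of the 6 sets. That of Slc51a in replicate 2 control cells was 0.376 (gap 0.666), where the gene was at 0.502 CPM in low-cycle cells. That of Pou5f1 in replicate 3 auxin cells was 1.19 (gap 0.716), from 20.2 against 8.3 CPM.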

How the results depend on the processing

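Counts of calls between low-cycle and other cells moved with most settings (higher and lower, against 2 and 24). They were 3 and 17 with RLE, 124 and 171 with DESeq2, 51 and 548 without a filter on low counts, 22 and 148 at the lowest 10%, 14 and 70 at the lowest 30%, 33 and 85 after thinning, 23 and 83 with split UMIs, 1 and 21 with ranking within plates, 2 and 31 over 4000 genes, and 28 and 170 with the 2 plates kept. No replicate block, sums per replicate, control cells alone, auxin cells alone and other cells matched on UMI total gave 0 and 0 (431, 1242, 879, 867 and 814 genes at an unadjusted p under 0.05). Cells at or above 50% of the median UMI total gave 1 and 2, and leaving out the Krt18 cell 2 and 34. Leaving out 1 replicate gave 0 to 14 higher and 0 to 143 lower. Slc51a reversed to −0.44 at the lowest 10%.

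The auxin comparison within low-cycle cells, at 0 calls, gave 1 higher and 3 lower with DESeq2, 6 and 25 without a filter, 0 and 0 with no replicate block (56 genes at an unadjusted p under 0.05), and 0 to 1 higher and 0 to 3 lower on leaving out a replicate. Without replicate 2 the calls were Cyp1a1, Lefty2, Krt8 and Krt18, and without replicate 3 Gm15261, Gm34623 and Adra1b. The interaction gave 1 and 0 without a filter, and 0 to 4 lower on leaving out a replicate, being Rap1gap, Gm34623, Adra1b and mt-Cytb without replicate 3. Of the named genes' other values, 1438 kept their side of the threshold, 227 lost it and 155 gained it.

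With 6 sets the smallest exact sign-flip p was 0.03125, and with 3 replicates 0.25.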

Other observations

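Malat1 and Neat1, named after their values were seen, had higher levels in low-cycle cells in 6 of 6 sets and did not pass with edgeR on full counts. Malat1, an abundant nuclear transcript, was at 12817, 17562 and 4309 CPM in low-cycle control cells and 8581, 14899 and 5989 CPM in low-cycle auxin cells, against 9039, 9767 and 4272 CPM and 6376, 9058 and 4870.1 CPM in other cells (log2 difference 0.47, SE 0.09, edgeR adjusted p = 0.0518). Neat1, the scaffold of paraspeckles, was at 57.6 to 102 CPM against 11.8 to 63.8 CPM (1.31, SE 0.26, adjusted p = 0.0554). With DESeq2 both passed (adjusted p = 0.000554 and 3.5e-05), as with every cell thinned to 20000 UMIs (edgeR, 0.0116 and 0.002). Against other cells matched on UMI total, where no gene passed, the differences were 0.34 and 1.14 (edgeR adjusted p = 0.281 and 0.25). The UMI totals of low-cycle cells were lower in 6 of 6 sets, and the part of depth or of the nuclear share of RNA in these values was not tested.

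Cryab, a small heat shock protein, was at 2.02 (SE 0.40, edgeR adjusted p = 0.0554, DESeq2 adjusted p = 5.6e-05, and edgeR on thinned cells 0.0332). S100a1, a calcium-binding protein, was at 1.09 (SE 0.23, edgeR adjusted p = 0.066, DESeq2 adjusted p = 0.00025, and edgeR on thinned cells 0.00908). UMIs of Cryab were found in 32 low-cycle cells, of which the cell with the most Krt18 held 33.8% of them, and without that cell the difference was 1.60 (edgeR adjusted p = 0.102). UMIs of S100a1 were found in 65, of which 1 held 14.4%.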
